A study of Mus musculus with 227 samples.

Results

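Formoterol is a long-acting beta adrenergic agonist, used as an inhaled bronchodilator, and 1 library of the drug screen described here came from cortical cultures exposed to it. The library, chosen by its agent label, is 1 of 218 drug libraries, which stand beside 9 vehicle libraries. It was set against those 9 and, separately, against the 30 other drug libraries that carry the same sequencing run code, HI.3145. The whole screen measured RNA after 218 drugs, with 1 library for each drug. The labels state no replicate of Formoterol, so none of its values has a replicate check of its own.

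All libraries came from primary cerebrocortical cultures of F1 embryos (FVBN(F)xC3B6F1(M)) taken on embryonic day 16.5 and kept for 21 days in vitro. Drugs were applied for 8 h, and the controls received the vehicle, 0.2% DMSO. The sources used here give no dose. The 30 drugs of the run are of many classes, among them the beta blockers Labetalol·HCl and Bisoprolol Fumarate, the thyroid hormones Levothyroxine·Na and Liothyronine·Na, and the retinoid Isotretinoin. The run also holds 1 vehicle, Vehicle 4, and the other 8 vehicles carry other run codes. Drug and run therefore cannot be fully told apart in the comparison with vehicle, whereas the comparison within the run sets Formoterol against other active drugs.

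Beta adrenergic receptors couple to the stimulatory G protein, which activates adenylyl cyclase and raises cAMP. cAMP activates protein kinase A, and the kinase phosphorylates the transcription factor CREB, which binds the cAMP response element in promoters of genes such as Crem, Fos, Nr4a1 and Dio2. Phosphodiesterases degrade cAMP and end the signal. In cortex, astrocytes carry beta receptors, and noradrenaline acting on them is known to mobilise glycogen and release lactate.

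The Formoterol library held 28.94 M counted reads, fewer than any vehicle (31.4 to 43.77 M, median 38.14 M) and within the range of the run's drugs (23.77 to 39.14 M, median 32.25 M). Mitochondrial genes took 4.09% of its reads, above the 3.1 to 3.91% of the vehicles and within the 3.23 to 4.3% of the run's drugs. The 8 neuron markers summed to 4580 CPM (read counts scaled to a common library size, with TMM factors) in Formoterol, below the 5215 to 7241 of the vehicles and within the 4447 to 6345 of the run. The 8 astrocyte markers summed to 8139 CPM, above the vehicles (6304 to 8001) and within the run (6420 to 8731), so the culture's neuronal and glial markers were both present. The 5 oligodendrocyte precursor markers summed to 422 CPM, below the vehicles (473 to 557) and inside the run (379.5 to 497.5). The 6 fibroblast and meningeal markers summed to 179.5 CPM, the 6 oligodendrocyte markers to 69.4 CPM and the 6 choroid plexus and ependymal markers to 59.5 CPM. The 8 microglia markers summed to 5.4 CPM and the 6 endothelial markers to 2.79 CPM, with Cldn5 at 0, and the 6 mural cell markers to 39.9 CPM, with Kcnj8 at 0. In these bulk samples, fewer cells of a type and less RNA per cell cannot be told apart. The part of marker levels, depth or run in the results below was not tested, except where a value is given.

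Stretches before the transcription start of 3 genes that stood out are shown because they hold the cAMP response element or its conserved core. They are from RefSeq on GRCm38.p6, written 5′ to 3′ on the gene's strand, with the motif in capitals. Dio2, on the minus strand at chr12:90739070-90739189, holds the full palindrome TGACGTCA from 95 to 88 bases before its RefSeq start. That start lies upstream of the GENCODE vM21 span of Dio2 given further below. Ptp4a1, on the minus strand at chr1:30949829-30949908, and Tacr1, on the plus strand at chr6:82402225-82402304, hold only the core, which is TGACG or, on the opposite strand, CGTCA. None of these stretches touches an exon of the GENCODE vM21 annotation.
Dio2: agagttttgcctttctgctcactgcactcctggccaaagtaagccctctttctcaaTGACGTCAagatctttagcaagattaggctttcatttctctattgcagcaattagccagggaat
Ptp4a1: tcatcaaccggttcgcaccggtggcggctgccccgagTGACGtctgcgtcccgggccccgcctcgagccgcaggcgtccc
Tacr1: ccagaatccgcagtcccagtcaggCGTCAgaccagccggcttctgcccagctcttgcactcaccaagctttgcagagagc
The windows searched ran from 250 bases before to 50 after each start, on both strands, and each full palindrome also contains the core. Of the 37 genes that rose in both comparisons, 30 had a window, and 1 of these (3.33%), Mcam, held TGACGTCA, against 403 of 11376 tested genes with a window (3.54%) and 588 of all 32851 windows (1.79%). The core was in 11 of the 30 (36.7%) and in 3838 of the 11376 (33.7%). Among the 268 genes that rose within the run, 207 had a window, with the palindrome in 9 (4.35%) and the core in 86 (41.5%). A match is a description of these letters and not evidence of a bound site.

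Against the 9 vehicles, 38 genes rose (0.246%) and 2 fell (0.013%) of 15427 tested, together 0.259% of genes (edgeR's quasi-likelihood test, Benjamini-Hochberg adjusted p under 0.05). An unadjusted p under 0.05 was reached by 3186 genes. Within the run, 268 genes rose (1.74%) and 34 fell (0.221%) of 15419 tested, together 1.96%, and 2324 had an unadjusted p under 0.05. The same threshold and direction in both comparisons was reached by 38 genes, 37 that rose and 1 that fell, or 0.25% of the 15211 genes tested in both. In each fit the spread comes from the other libraries alone, and the single Formoterol library is assumed to vary like them. Of the 40 genes past the vehicle comparison, 20 also passed in each of the 9 fits that left out 1 vehicle, and 20 were lost in at least 1 of them. A limma fit with a term for run code, in which Formoterol is set against Vehicle 4 alone, called 0 genes (2897 at an unadjusted p under 0.05), and DESeq2 called 851. The 2 comparisons share the Formoterol library, so their overlap is no independent support. The median log2 fold change of all genes was -0.01 in both comparisons.

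All 37 rises lay above all 9 vehicles and above all 30 drugs of the run. Across the tested genes, Formoterol lay above all vehicles for 23.4% and above all drugs of the run for 9.63%. At 26 of the 37 genes Formoterol was the highest library of the screen, a position it held for 3.44% of the genes tested against vehicle, and at 8 more it was the second highest. Their log2 fold changes against vehicle ran from 0.45 to 4.2 with a median of 1.1. These positions follow in part from the choice of genes that passed and are given as a description.

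**Figure D1:**
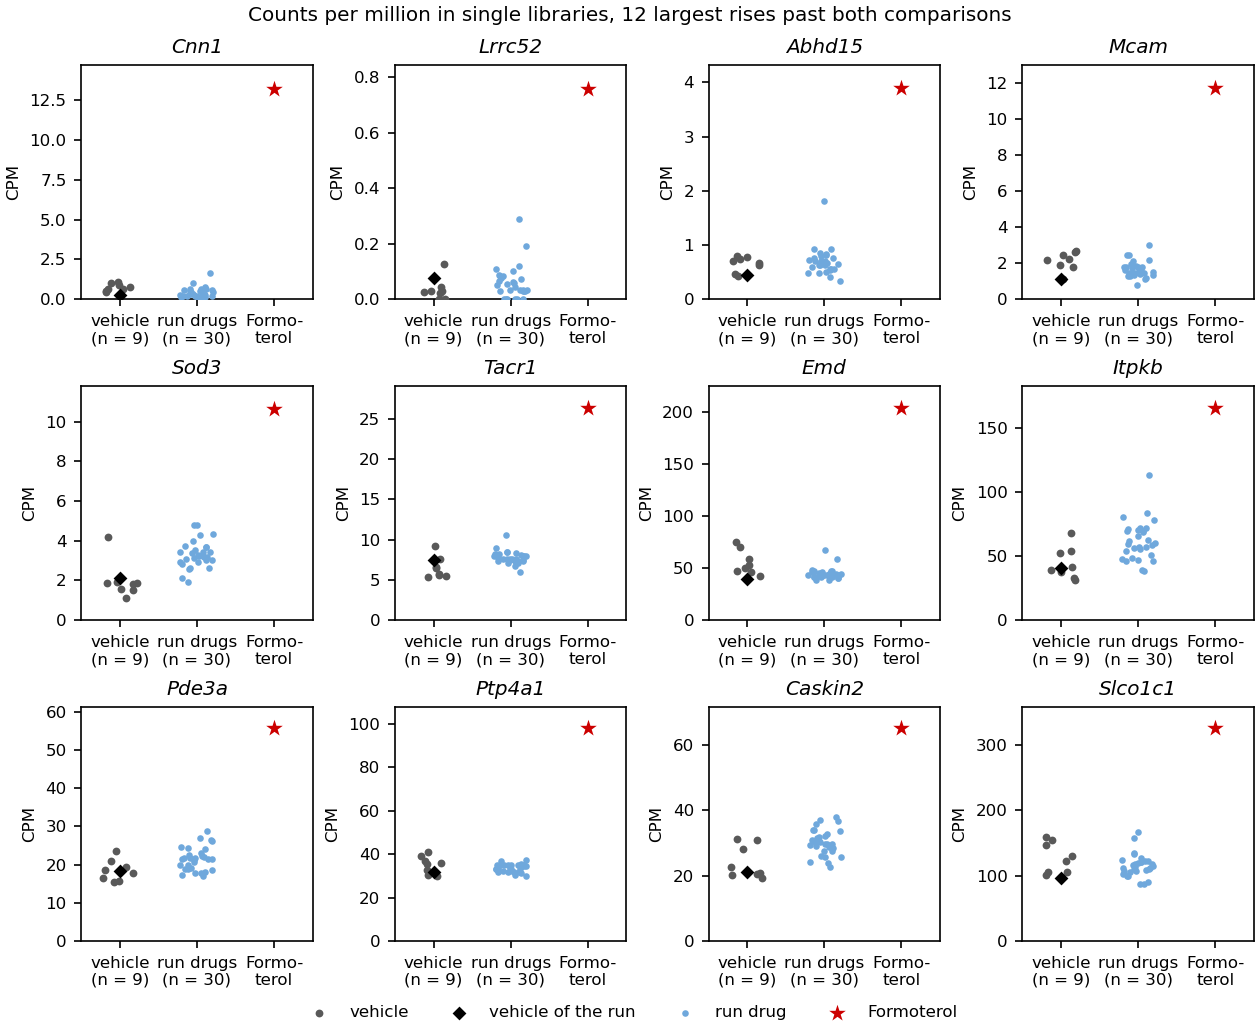
CPM (linear axis from 0) in single libraries for the 12 largest rises past both comparisons: 9 vehicles (grey, with the run's own vehicle as a black diamond), 30 drugs of the run (blue) and Formoterol (red star). In each of the 12 panels the star lies above all 39 other points.

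The largest rise was that of Cnn1, which encodes the actin-binding protein calponin 1, known from smooth muscle (ENSMUSG00000001349.4, chr9:22099216-22109630, mm10). Its level was 13.2 CPM in Formoterol. Vehicles 1 to 9 had 0.653, 0.44, 1.09, 0.286, 0.522, 0.998, 0.756, 0.868 and 0.613 CPM, and the drugs of the run had 0.139 to 1.7 CPM with a median of 0.304. No other library came near Formoterol, and the next highest of the screen were Luteolin with 3.1 CPM and Fenofibrate with 2.47 CPM. The log2 fold change was 4.2 ± 0.35 (SE) against vehicle (edgeR adjusted p = 0.000956) and 4.96 ± 0.42 within the run (edgeR adjusted p = 4.45e-10). Csrp2, a LIM-domain protein also known from smooth muscle, rose within the run, at 20.4 CPM against a median of 6.5 (log2 fold change 1.61 ± 0.11, edgeR adjusted p = 3.89e-12). Csrp2 did not pass against vehicle (1.31 ± 0.35, edgeR adjusted p = 0.144). Markers of mural cells, which include vascular smooth muscle, summed to 39.9 CPM, inside the range of both the vehicles (18.7 to 54.5) and the run (27.7 to 56.9). Of the 4 mural markers tested, 3 were below 0 against vehicle and 1 above, with a median log2 fold change of -0.76. Within the run 2 were below 0 and 2 above (median -0.47), and none passed in either comparison.

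Other genes of adhesion, the cytoskeleton and the nuclear envelope stood beside Cnn1 among the rises. Mcam, a cell adhesion molecule also called CD146, was at 11.7 CPM, with vehicles from 1.09 to 2.66 (median 2.18) and the run from 0.761 to 3.03. Its log2 fold change was 2.55 ± 0.34 against vehicle (edgeR adjusted p = 0.0133), and the 1 library above Formoterol was Fenofibrate, with 15.1 CPM. Emd, which encodes the inner nuclear membrane protein emerin, was at 204 CPM, with vehicles from 39.4 to 74.5 (median 50.3) and the run from 38.3 to 67.3. Emd was 2.2 ± 0.13 higher on the log2 scale within the run (edgeR adjusted p = 1.44e-14). Srgap1, a GTPase-activating protein of the Slit-Robo pathway, had the lowest adjusted p against vehicle of all genes. Its 158 CPM stood above vehicles of 57.3 to 70.3 (median 62) and a run of 59.9 to 102, with a log2 fold change of 1.33 ± 0.08 against vehicle (edgeR adjusted p = 0.000174). Caskin2, a scaffold protein, was at 65.2 CPM with vehicles from 19.3 to 31.1 (log2 fold change 1.45 ± 0.23, edgeR adjusted p = 0.0399).

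Receptors of a peptide and a lipid signal were high. Tacr1, the receptor of substance P (chr6:82402334-82560104), was at 26.4 CPM, and Vehicles 1 to 9 had 7.59, 9.21, 6.54, 7.42, 6.4, 5.54, 5.5, 5.67 and 5.36 CPM. The run ranged from 5.99 to 10.6 CPM, so neither group overlapped with Formoterol. Tacr1 rose by a log2 fold change of 1.99 ± 0.22 against vehicle (edgeR adjusted p = 0.00376) and 1.8 ± 0.12 within the run (edgeR adjusted p = 5.1e-13). Ptgfr, the receptor of prostaglandin F2 alpha, was at 4.82 CPM, above vehicles of 0.362 to 1.59 and the run's 0.835 to 2.44, and higher than in any other library of the screen. It passed within the run (log2 fold change 1.84 ± 0.24, edgeR adjusted p = 7.63e-06) and missed the threshold against vehicle (2.5 ± 0.49, edgeR adjusted p = 0.0757).

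Enzymes of signalling included Pde3a, Ptp4a1 and Itpkb. Pde3a, a phosphodiesterase that degrades cAMP (ENSMUSG00000041741.9, chr6:141249269-141507448), was at 55.8 CPM. Vehicles 1 to 9 had 20.9, 18.7, 23.5, 18.4, 16.4, 19.3, 17.7, 15.4 and 15.6 CPM (mean 18.4 ± 2.6, SD, n = 9), and the run ranged from 17 to 28.8. Formoterol was 3.03 times the vehicle mean and the highest of the screen, before Fenofibrate with 42.1 CPM and Aminophylline, a phosphodiesterase inhibitor, with 37.8 CPM. The related inhibitors Theophylline (15.2 CPM, run HI.3083) and Oxtriphylline (13.3 CPM, run HI.3140) lay below all 9 vehicles at Pde3a. Aminophylline was of run HI.3122, so drug and run cannot be told apart among them. The log2 fold change was 1.59 ± 0.17 against vehicle (edgeR adjusted p = 0.00311) and 1.39 ± 0.16 within the run (edgeR adjusted p = 1.13e-06). Ptp4a1, a protein tyrosine phosphatase, was at 98.3 CPM and the vehicles at 29.9 to 41, with 30 to 37.3 in the run. Its rise within the run had the lowest adjusted p of the genes past both comparisons (log2 fold change 1.56 ± 0.06, edgeR adjusted p = 3.98e-18). Itpkb, an inositol trisphosphate kinase, was at 166 CPM against vehicles of 31.6 to 68.4, and 113 CPM in Fingolimod was the highest value of the rest of the screen.

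Transcriptional regulators formed another part of the rises. Hdac4, a class IIa histone deacetylase, whose movement between nucleus and cytoplasm is controlled by phosphorylation, was at 186 CPM. Its vehicles spanned only 87.9 to 103 CPM and the run 91.7 to 104, and the log2 fold change was 0.96 ± 0.08 against vehicle (edgeR adjusted p = 0.000956) and 0.94 ± 0.05 within the run (edgeR adjusted p = 3.65e-15). Rorb, an orphan nuclear receptor, was at 139 CPM with vehicles at 45.9 to 66.8 (log2 fold change 1.32 ± 0.17, edgeR adjusted p = 0.012). Arntl, the clock activator also called Bmal1, was at 60.7 CPM with vehicles at 23.2 to 36.8 and the run at 23.5 to 43.2 (log2 fold change 1.1 ± 0.17 against vehicle, edgeR adjusted p = 0.0302). Arntl was the only one of 17 clock genes tested that passed, in either comparison, where 0.259% and 1.96% of all genes passed, and the median of the list was -0.35 against vehicle and -0.14 within the run.

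Transport, redox and lipid genes complete the larger rises. Sod3, the extracellular superoxide dismutase, was at 10.6 CPM against vehicles of 1.1 to 4.2 (median 1.86) and a run of 1.94 to 4.79. Srxn1, which reduces oxidised peroxiredoxins, was at 337 CPM with vehicles from 120 to 197 and the run from 119 to 271, and Quercetin reached 611 CPM. Abhd15, an abhydrolase known from adipocytes, was at 3.89 CPM with vehicles from 0.427 to 0.788 (log2 fold change 2.62 ± 0.28, edgeR adjusted p = 0.00311). Lrrc52, an auxiliary subunit of potassium channels, had 22 reads in Formoterol, or 0.758 CPM, and 0 to 0.126 CPM in the vehicles, so its log2 fold change of 4.07 ± 0.67 rests on very few reads (edgeR adjusted p = 0.0446). The calls of Sod3, Srxn1 and Lrrc52 against vehicle were each lost when any of several single vehicles was left out, Sod3 in 8 of 9 such fits.

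Slco1c1 and its neighbours on chromosome 6 gave a cluster of high values. Slco1c1, a carrier of thyroxine known from brain vessels and astrocytes (chr6:141524368-141570177), was at 326 CPM, with vehicles from 96.1 to 160 (median 123) and the run from 87.3 to 167. The highest of the rest of the screen was 173 CPM, so Formoterol stood apart from all of them, with a log2 fold change of 1.38 ± 0.23 against vehicle (edgeR adjusted p = 0.0446) and 1.5 ± 0.17 within the run (edgeR adjusted p = 4.92e-07). Pde3a is the nearest tested gene before Slco1c1, and Slco1b2 (chr6:141629518-141686646), an organic anion carrier known from liver, is the nearest after it. Slco1b2 was at 1.69 CPM in Formoterol, with vehicles from 0.0289 to 0.404 and the run from 0 to 0.435, and rose within the run (log2 fold change 2.9 ± 0.45, edgeR adjusted p = 1.00e-04). The next tested genes outward, Aebp2 and Slco1a4, were 58.3 and 0.896 CPM in Formoterol and did not pass (edgeR adjusted p = 0.911 and 0.598 within the run). Of the genes examined beyond Slco1a4, Ldhb (chr6:142490249-142507957) also passed within the run (edgeR adjusted p = 0.0177). This neighbourhood was examined after the values of its genes had been seen.

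Rasa3, a GTPase-activating protein for Ras, was the 1 gene that fell in both comparisons. It was at 80.0 CPM in Formoterol, and Vehicles 1 to 9 had 117, 117, 114, 110, 114, 112, 112, 118 and 118 CPM, a narrow range that Formoterol lay below. The run ranged from 94.3 to 121 CPM, also above Formoterol, and 7.56% of tested genes lay below all drugs of the run in Formoterol and 25.1% below all vehicles. Rasa3 fell by 0.53 ± 0.07 on the log2 scale against vehicle (edgeR adjusted p = 0.012) and by 0.45 ± 0.09 within the run (edgeR adjusted p = 0.00454). Of the 2 genes that passed only against vehicle, Etv4, an ETS transcription factor, fell to 3.41 CPM, the lowest of the screen, from vehicles of 7.4 to 11.4 (log2 fold change -1.48 ± 0.23, edgeR adjusted p = 0.0348, and 0.0785 within the run). The other was RP23-276J7.2, with 10 reads in Formoterol (edgeR adjusted p = 0.0278).

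**Figure D2:**
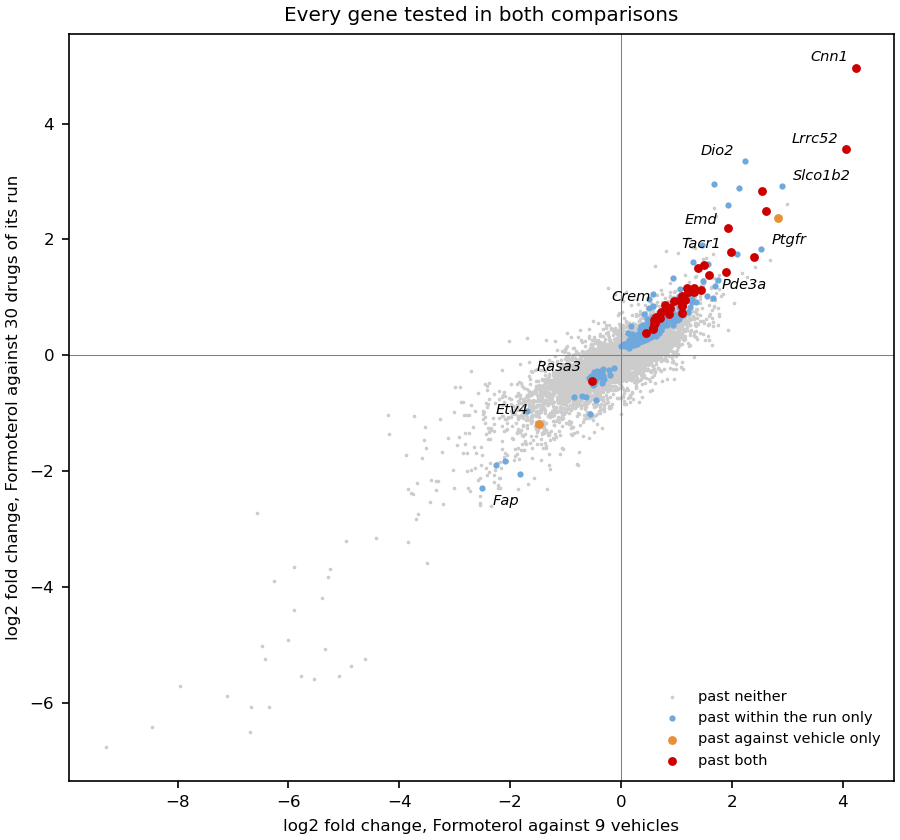
Log2 fold change of Formoterol against the 9 vehicles (horizontal) and against the 30 drugs of its run (vertical) for each of the 15211 genes tested in both; the axes share the Formoterol library. Red points passed both tests (38 genes), orange points only against vehicle and blue points only within the run, with Cnn1 at the upper right, Dio2 high on the vertical axis and Rasa3 below 0 on both axes.

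Among genes of the cAMP pathway, Dio2 had the widest gap to its run. Dio2 encodes type 2 deiodinase, which converts thyroxine to the active hormone, and is a known cAMP target (ENSMUSG00000007682.5, chr12:90724552-90738438). It was at 317 CPM in Formoterol and 22.7 to 55.2 CPM in the run, with a median of 29.5, and Vehicle 4 of the same run had 28.7 CPM. Vehicles 1 to 9 had 40.8, 27.7, 38.6, 28.7, 44.8, 93.4, 135, 148 and 48.5 CPM, so Formoterol stood above all of them, but Vehicles 6, 7 and 8 were far above the rest. The level was 10.8 times the median of the run and 11.1 times Vehicle 4. Dio2 rose within the run by a log2 fold change of 3.4 ± 0.18 (edgeR adjusted p = 3.78e-15) and did not pass against vehicle, where the vehicles spread widely (2.23 ± 0.71, edgeR adjusted p = 0.174). Luteolin, with 442 CPM, was the 1 library of the screen above Formoterol.

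Crem, whose short inducible isoforms repress CREB targets, was the 1 gene of the 40 cAMP and CREB target genes that passed both comparisons. Its level was 23.6 CPM in Formoterol, and Vehicles 1 to 9 had 14.4, 13.4, 14.8, 12.7, 13.8, 16.7, 14.3, 15 and 13.1 CPM. The run ranged from 11.8 to 16.8 CPM, so no library of either group reached Formoterol, while 5 others of the screen did, led by Nilotinib with 31.2 CPM. The log2 fold change was 0.72 ± 0.12 against vehicle (edgeR adjusted p = 0.0446) and 0.75 ± 0.12 within the run (edgeR adjusted p = 0.000123). The call against vehicle was lost (edgeR adjusted p up to 0.0977) when Vehicle 1, 2, 4, 5, 7, 8 or 9 was left out. The counts are per gene and do not separate the isoforms.

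The other cAMP and CREB target genes did not pass. Of 38 tested against vehicle, 1 rose and none fell, with 0.259% of all genes past that threshold, and the median log2 fold change was -0.36. Of 37 tested within the run, 2 rose (Crem and Dio2) and none fell, with 1.96% of all genes past that threshold, and the median was 0.14. The median over all genes was -0.01 in both comparisons, so the list lay below it against vehicle and above it within the run. Areg and Pck1 had 0 reads in Formoterol. Fos, an immediate early gene, was at 22.4 CPM, inside the 16.6 to 138 of the vehicles and the 14.8 to 99.2 of the run. Nr4a1, an early nuclear receptor, was at 12.9 CPM, also inside both ranges. Sik1, a kinase that restrains CREB coactivators, was at 27.3 CPM, just above the run's highest value of 27.1 but inside the vehicles' 18.2 to 43.6 (edgeR adjusted p = 0.0787 within the run). Bdnf, a neurotrophin, was at 11.8 CPM, below all vehicles (19.9 to 205) and inside the run (8.37 to 59.2), and did not pass (edgeR adjusted p = 0.304 against vehicle). The 25 activity-regulated genes, a list that shares members with the cAMP list, had a median log2 fold change of -1.66 against vehicle and -0.54 within the run, with none past the threshold. Their summed level was 852 CPM in Formoterol, 820 CPM in Vehicle 4 and up to 3669 CPM in the other vehicles, so the vehicle libraries themselves differed widely in these genes.

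**Figure D3:**
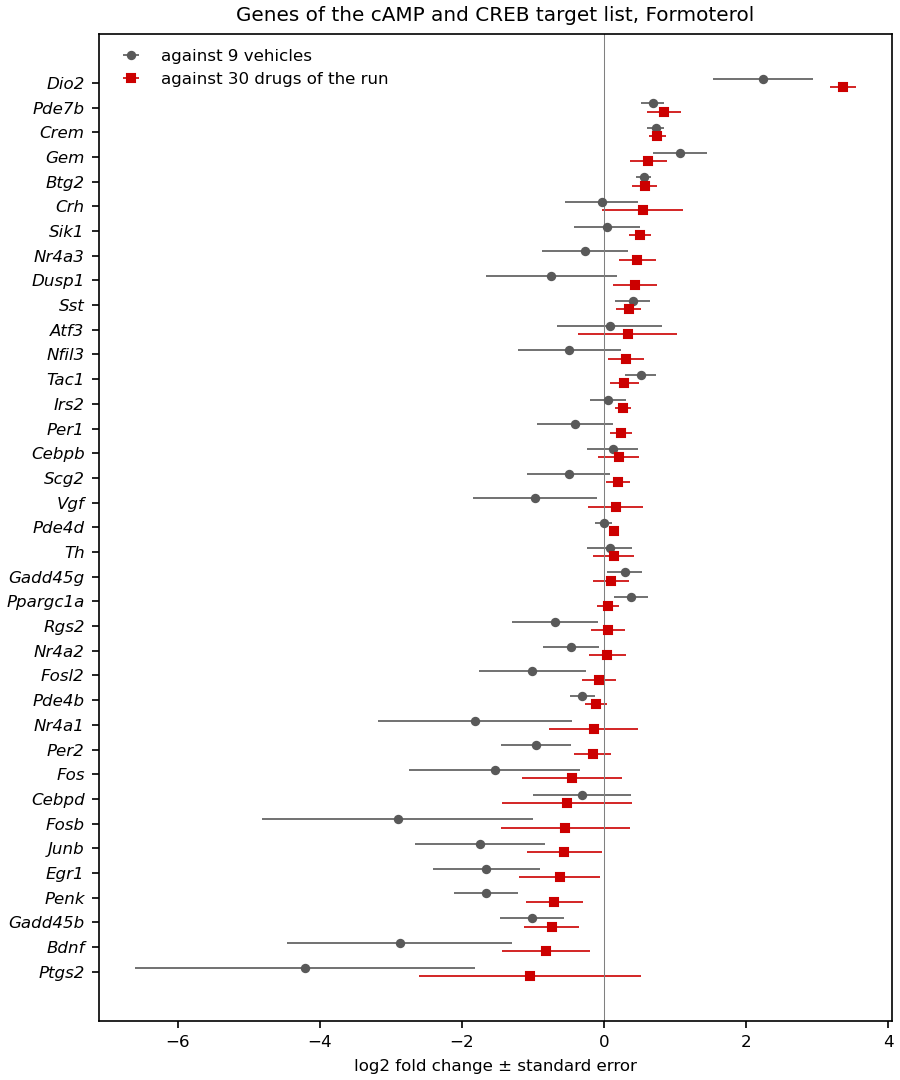
Log2 fold change with its standard error for the 37 genes of the cAMP and CREB target list tested in both comparisons, against 9 vehicles (grey circles) and against 30 drugs of the run (red squares), ordered by the latter. Dio2 stands apart at the top; the early genes Fos, Fosb, Junb and Egr1 lie below 0 in both comparisons with wide errors against vehicle.

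The phosphodiesterases had 1 rise against vehicle (Pde3a) and 2 within the run (Pde3a and Pde9a) of 16 tested, where 0.246% and 1.74% of all genes rose, with none that fell and medians of -0.22 and -0.10. Pde9a, which degrades cGMP, was at 27.9 CPM with vehicles at 16 to 20.5 and the run at 15.8 to 21.4. It was the highest library of the screen at this gene and rose within the run (log2 fold change 0.64 ± 0.11, edgeR adjusted p = 0.000345), with an adjusted p of 0.0543 against vehicle by edgeR. Pde7b, a cAMP-specific enzyme, was also highest in Formoterol, at 26.9 CPM against a run of 9.95 to 22.8, and missed the threshold in both (edgeR adjusted p = 0.103 and 0.0531). None of the 26 genes of cAMP synthesis, protein kinase A and CREB and none of the 12 genes of receptor coupling and desensitisation passed in either comparison.

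Among the receptors, Adrb1 was well detected and Adrb3 was near the limit of detection. Per kilobase of gene length, Adrb1, the beta-1 receptor, was at 5.27 CPM in Formoterol and 6.87 ± 0.98 (SD, n = 9) in the vehicles. Adrb3, the beta-3 receptor, had 5 reads in Formoterol. Not scaled by length, Adrb1 was at 13.1 CPM in Formoterol, just below the vehicles (14.3 to 20.7) and inside the run (10.5 to 23.2), with a log2 fold change of -0.39 ± 0.21 against vehicle (edgeR adjusted p = 0.298). Adra2a, the alpha-2A receptor, which inhibits adenylyl cyclase, was at 92.9 CPM, the highest of the screen, above vehicles of 26.7 to 59.6 and a run of 46.9 to 90.4. It did not pass (log2 fold change 1.1 ± 0.34, edgeR adjusted p = 0.161 against vehicle and 0.058 within the run). None of the 8 adrenergic receptors tested passed in either comparison.

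Genes of glycogen and lactate metabolism rose within the run in 4 of 21 cases, where 1.74% of all genes rose, and in none against vehicle. The list's medians were 0.16 and 0.30. Of the 4, 3 encode glycogen-targeting subunits of protein phosphatase 1, which bring the phosphatase to glycogen. Ppp1r3c was at 142 CPM, above the run's 49.7 to 92.5 (log2 fold change 1.05 ± 0.18, edgeR adjusted p = 0.000571). Vehicles 1 to 9 had 107, 68.6, 83.3, 51.4, 97.9, 117, 123, 124 and 83.2 CPM at this gene, and Vehicle 4, of the same run, was the lowest of them. Ppp1r3d was at 20.0 CPM, the highest of the screen, above the run's 9.12 to 14.2 (log2 fold change 0.82 ± 0.12, edgeR adjusted p = 2.96e-05) and the vehicles' 10.8 to 18.4. Ppp1r3g was at 10.5 CPM against a run of 3.87 to 8.69 and rose by 0.96 ± 0.26 on the log2 scale (edgeR adjusted p = 0.0411, and 0.0606 with no filter on low counts). The fourth was Ldhb, a lactate dehydrogenase subunit, at 468 CPM, the highest of the screen, with the run at 240 to 375 (log2 fold change 0.61 ± 0.15, edgeR adjusted p = 0.0177) and the vehicles at 161 to 303. Astrocyte markers moved beside these genes to a small extent within the run, with a median log2 fold change of 0.09, and more against vehicle, with 0.57. Of 8 astrocyte markers, only Aldh1l1 rose within the run, where 1.74% of all genes rose (269 CPM against 148 to 224, log2 fold change 0.60 ± 0.14, edgeR adjusted p = 0.0148).

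**Figure D4:**
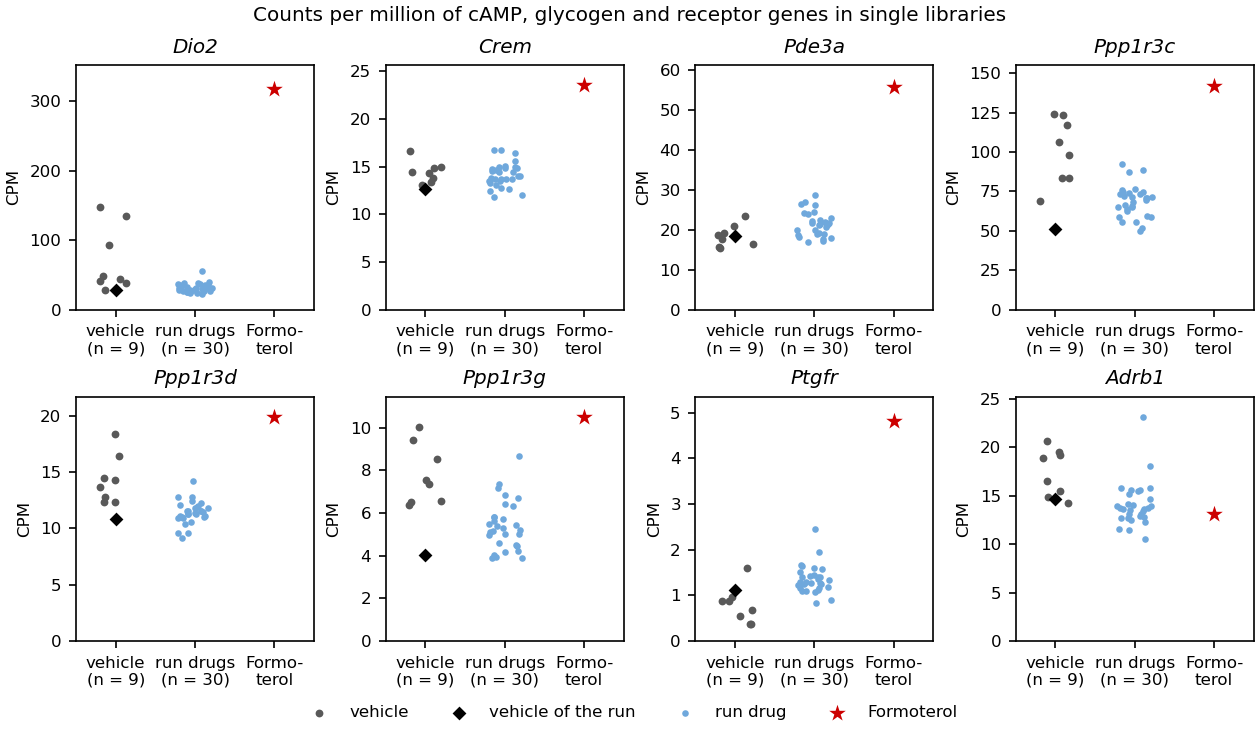
CPM (linear axis from 0) in single libraries for Dio2, Crem, Pde3a, 3 glycogen-targeting subunits, Ptgfr and Adrb1, with symbols as in the plot of the 12 largest rises. At Dio2 and Ppp1r3c the run's own vehicle (28.7 and 51.4 CPM) lies below most other vehicles, and Adrb1 is the 1 panel where Formoterol is not the highest point.

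Further genes passed only within the run, 264 in all. The largest rises among them after Dio2 were Dapk2, a calmodulin-regulated kinase, Slco1b2, C2cd4b and Cartpt, which encodes the CART neuropeptide. Dapk2 was at 7.13 CPM with the run at 0.253 to 2.8 (log2 fold change 2.95 ± 0.52, edgeR adjusted p = 0.000653), and the vehicles reached 5.0 CPM. C2cd4b was at 2.86 CPM, the highest of the screen, with the run at 0.127 to 0.894 and the vehicles at 0.278 to 1.2. Cartpt, whose promoter window also held TGACGTCA, was at 1.9 CPM with the run at 0.119 to 0.801 and the vehicles at 0.187 to 0.84 (log2 fold change 2.60 ± 0.48, edgeR adjusted p = 0.00123 within the run and 0.159 against vehicle). Thbd, Cml5 and Spon2 were also among the 10 largest, at 1.69, 1.03 and 0.793 CPM. Cml5 belongs to a family of similar neighbouring genes, so reads may be divided between copies.

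The largest falls within the run were at low levels. Fap, a serine protease of fibroblasts, had 4 reads in Formoterol, or 0.138 CPM, with the run at 0.375 to 1.1 and the vehicles at 0.532 to 1.23 (log2 fold change -2.30 ± 0.55, edgeR adjusted p = 0.0188). Prokr1, a prokineticin receptor, was at 0.31 CPM, the lowest of the screen, as were Mypn at 0.379 CPM and Adamts13 at 0.207 CPM. Of better measured genes, Nckap5 was at 10.5 CPM with the run at 17.7 to 29.2 (log2 fold change -1.02 ± 0.21, edgeR adjusted p = 0.00355) and vehicles that reached down to 10.4. Fam184b was at 12 CPM, below both the run (17.5 to 23.7) and the vehicles (18.1 to 24.9), and Gpr37, an orphan receptor of oligodendrocytes and astrocytes, at 6.62 CPM, below 9.23 to 13.0 in the run. Ndp, which encodes the secreted protein norrin, was at 9.68 CPM with the run at 12.7 to 21.0.

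The other lists held few calls. The glucocorticoid list had 1 rise of 15 within the run, where 1.74% of all genes rose: Tsc22d3, at 51.6 CPM against 28.3 to 39.6 (log2 fold change 0.60 ± 0.12, edgeR adjusted p = 0.00206), and Dexamethasone, a glucocorticoid of another run, had 181 CPM. No gene passed in either comparison among 14 trophic factors tested against vehicle, 12 of PGC-1 and fatty acid oxidation, 14 of NF-kB inflammation and 14 of the hypoxia response. The hypoxia list had a median of -0.99 against vehicle and -0.17 within the run, and its summed level of 592 CPM stood beside 593 CPM in Vehicle 4, while other vehicles reached 1807 CPM. Neuron markers had medians of -0.62 and -0.25, with all 8 below 0 in both comparisons and none past the threshold, and excitatory neuron markers -0.95 and -0.50. Inhibitory neuron markers had medians of 0.15 and 0.003. Against vehicle 7 of these 8 were above 0 and 1 below, within the run 4 above and 4 below, and none passed.

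**Figure D5:**
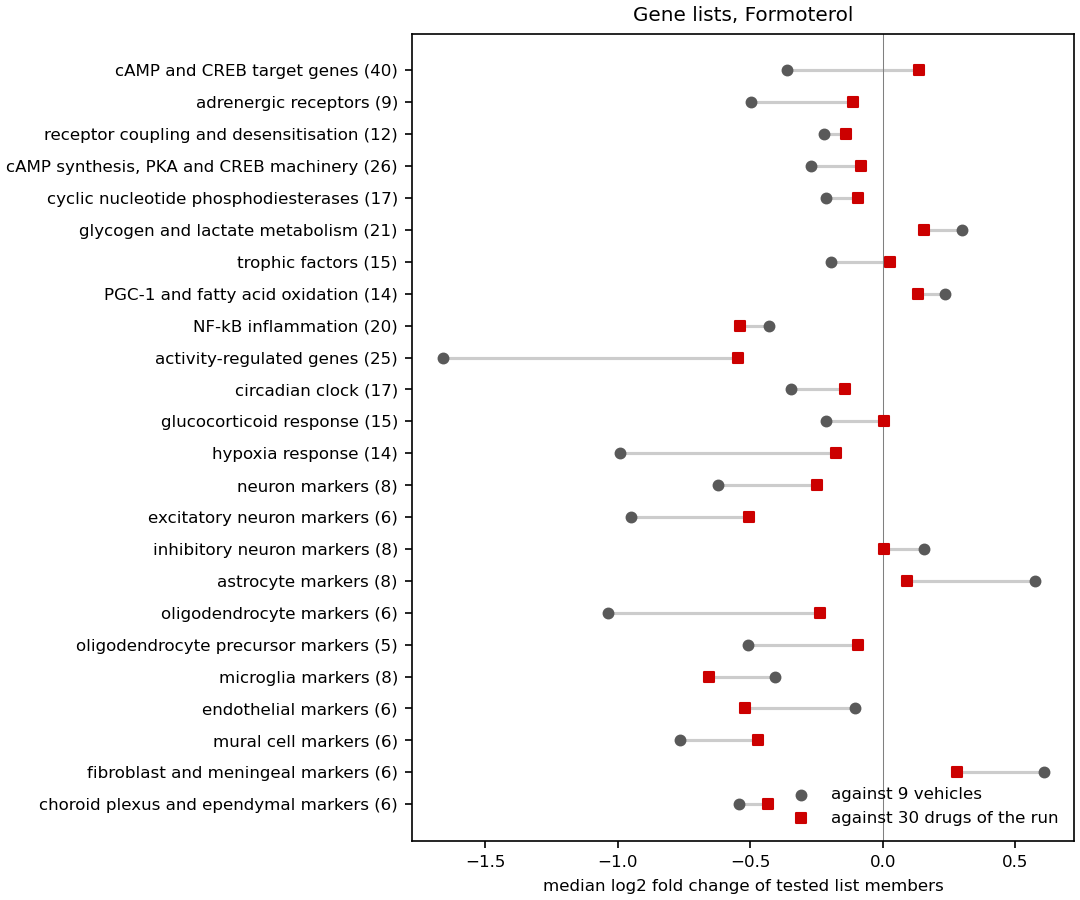
Median log2 fold change of the tested members of 24 gene lists (number of genes in brackets) against 9 vehicles (grey circles) and against 30 drugs of the run (red squares). For activity-regulated, hypoxia and oligodendrocyte genes the median against vehicle lies far below 0 (-1.66, -0.99 and -1.04) and the median within the run nearer to it (-0.54, -0.17 and -0.24).

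Related agents of the screen were set beside Formoterol at 14 genes chosen after the values were seen: Dio2, Crem, Pde3a, Cnn1, Tacr1, Ptgfr, Hdac4, Ptp4a1, Emd, Srgap1, Slco1c1, Mcam, Ppp1r3c and Arntl. Each agent had 1 library, doses are not given, and no test was made. The share of all genes at which each agent lay outside the vehicles was not computed, so the counts below are a description. For Formoterol itself these shares were 23.4% above and 25.1% below all 9 vehicles. Among xanthines, which inhibit phosphodiesterases and block adenosine receptors, Aminophylline lay above all vehicles at 5 of the 14 and below them at 1, and Theophylline above at 2 and below at 2. Dimenhydrinate (a salt with a xanthine) lay above at 1 and below at 1, and Oxtriphylline above at 0 and below at 2. At Pde3a the xanthine libraries lay on different sides of the vehicles. Aminophylline (run HI.3122) had 37.8 CPM, above all vehicles. Theophylline (run HI.3083) with 15.2 CPM and Oxtriphylline (run HI.3140) with 13.3 CPM lay below the lowest vehicle (15.4 CPM). Drug and run cannot be told apart in these values. Aminophylline had 25.3 CPM of Dio2, below all vehicles. Misoprostol, a prostaglandin E analog, from run HI.3146, was inside the vehicle range at all 14. Of the beta blockers, only those of Formoterol's own run were examined. Bisoprolol Fumarate was inside the range at all 14, and Labetalol·HCl was above it at 2 and below it at 1. Beta blockers of other runs, such as Propranolol·HCl, were not set beside Formoterol. Fenofibrate, a PPAR alpha agonist, was above at 9 and below at 1, and Luteolin, a flavonoid, was above at 12 and below at 0, both from other runs. At the 37 genes that rose in both comparisons, Fenofibrate was among the 3 highest other drugs of the screen for 17, Luteolin for 14, and Fingolimod and Nilotinib for 9 each. How often these libraries are among the 3 highest over all genes was not counted.

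Fingolimod shares with Formoterol the section of the run given in the labels (005), along with Fexofenadine·HCl and Fluvoxamine Maleate. At the 37 genes, Fingolimod was the highest of the 30 drugs of the run for 16, Fexofenadine·HCl for 1 and Fluvoxamine Maleate for 0, and their median ranks among the 30 were 2, 9 and 9. The same positions over all genes were not counted, so these values describe the 37 genes only. At Cnn1 the 3 libraries had 1.7, 0.421 and 0.543 CPM against 13.2 in Formoterol, and at Dio2 36.9, 25.7 and 35.7 CPM against 317. At Srgap1 they had 102, 91.5 and 82.9 CPM against 158 in Formoterol and 59.2 in Vehicle 4. All 30 drugs of the run lay above Vehicle 4 at this gene, so that position is not particular to the section. The part of the shared section was not tested beyond a fit against these 3 libraries alone, in which 61 genes passed, 44 of them among the 302 of the whole run.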

How the data were processed

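RNA from 218 drug and 9 vehicle libraries was sequenced with a stranded mRNA kit. The deposited values used here are whole-read counts per Ensembl gene for 31689 genes, made by the authors and not normalized. The submitters' processing notes name STAR 2.4.0, Subread 1.4.6, limma, edgeR 3.10.5 and mm10 without roles. Counts were tested in R 4.3.3 with edgeR 4.0.16 (TMM factors, default filter on low counts, quasi-likelihood F test, Benjamini-Hochberg threshold 0.05), with Formoterol against 9 vehicles and against 30 drugs of run HI.3145. SE is the log2 fold change divided by the square root of F. CPM are scaled by TMM factors over all libraries. Whether the vehicles came from separate cultures is not given in the sources used here, so p-values measure the spread between these samples, which may be technical. On simulated data, the vehicle comparison (15245 genes) recovered 60%, 91% and 86.4% of genes changed by 1, 2 and 3 log2 units and called 9 unchanged genes. The run comparison (15269 genes) recovered 83.6%, 91% and 92.4%, and called 9. The simulated counts took their mean and spread from the reference libraries, with no run difference and no extra spread for the drug library. These rates therefore do not measure the errors of the real comparisons. Alternatives were RLE factors, DESeq2 1.42.0, no filter, limma 3.58.1 with a run code term, other run sets, and leaving out each vehicle.

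Genes named are the 15 largest rises and falls past both comparisons, the 10 largest each way past only 1, and members of 24 lists; others were added after their values were seen. The genes, lists and tests were chosen with earlier results of these data known. Of the rule's genes, 5730508B09Rik is given no value in the text. A result on 1 further item is not reported here.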

Additional observations from a re-analysis of the deposited data

Results flagged for a closer look

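At 67 genes (those named by rule, past both comparisons, or in a list and higher within the run), the 9 vehicles were checked for 1 library far from the others, which chance gives for about 1 gene in 20. At Sod3, Vehicle 3 had 4.2 CPM and the next highest vehicle 2.1 CPM. At Srxn1, Vehicle 3 again stood apart, with 197 CPM and a next highest of 154 CPM. Formoterol lay above Vehicle 3 at both genes, with 10.6 and 337 CPM. At 5330426P16Rik, Vehicle 1 had 15.7 CPM and the next highest 12 CPM, with 7.48 CPM in Formoterol. At Man1b1, which rose in both comparisons, Vehicle 4 had 93.5 CPM and the next lowest vehicle 98.7 CPM, with 151 CPM in Formoterol.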

How the results depend on the processing

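Against vehicle, 40 genes passed with all 9 vehicles and 20 to 80 when 1 was left out: 32, 51, 80, 23, 20, 22, 28, 30 and 25 without Vehicles 1 to 9. DESeq2 called 851 genes (318 that rose and 533 that fell, 38 of the 40 among them). The limma fit with a run code term called 0, with 2897 at an unadjusted p under 0.05; its Formoterol value rests on Vehicle 4 alone. In both comparisons, 38 genes passed, 228 with DESeq2 (37 of the 38 among them) and 20 to 68 with 1 vehicle left out (68 without Vehicle 3, 22 without Vehicle 4, 20 without Vehicle 5, 22 without Vehicle 6 and 24 without Vehicle 9). Within the run, 302 passed, and 61 against the 3 drugs of the same section. Cnn1, Abhd15, Mcam, Tacr1, Emd, Pde3a, Ptp4a1, Srgap1, Rorb, Hdac4 and Rasa3 were among the 20 genes that passed whichever vehicle was left out; Lrrc52, Itpkb, Caskin2, Slco1c1, Srxn1, Crem, Arntl, Etv4 and RP23-276J7.2 were among the 20 that did not, and of these fits Sod3 passed only the one without Vehicle 3. Of 65 genes followed within the run, 23 passed against the same section alone; among those that kept their direction and did not pass were Crem, Ptgfr, Slco1b2, Pde9a, Ppp1r3c, Ppp1r3g, Ldhb and Aldh1l1. None of the 40 genes past the vehicle comparison or these 65 changed direction under these alternatives. List medians moved for 18 of 24 lists, with 3 changes of sign, when the run replaced the vehicles. The cause of these differences was not tested. No paired analysis was possible because Formoterol has 1 library and the vehicle numbers pair with no other sample. At 28.94 M counts, genes with a few reads, such as Adrb3, can show only large differences.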
